A study of Mus musculus with 16 samples.

Results

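Glucose uptake and glycolysis were followed through 10 genes in RNA of epithelial cells from the mouse caecum (strain C57BL/6, an inbred laboratory line). The 10 were named by symbol, all 10 were found among the 24091 genes of the deposited table, and all 10 passed the filter that left 12155 genes for testing. They are the glucose transporter gene Slc2a1, the hexokinase genes Hk1 and Hk2, the glucose phosphate isomerase gene Gpi1, the phosphofructokinase genes Pfkl, Pfkm and Pfkp, the phosphoglycerate kinase gene Pgk1, the pyruvate kinase gene Pkm and the lactate dehydrogenase gene Ldha. Their RNA was compared in 3 groups of 3 libraries each. In the group called ampicillin with tributyrin, mice drank 10 g/L Splenda, a sweetener used as the vehicle, together with the antibiotic ampicillin at 1 g/L for 7 days, and were then gavaged with tributyrin, a fat that lipases split into butyrate and glycerol, 6 h before harvest. The group called ampicillin with mock drank the same water and was gavaged with 25% glycerol. The group called vehicle with mock drank Splenda without the antibiotic and was gavaged with 25% glycerol, so that Splenda water and a gavage were common to all groups. The dose of tributyrin is not given in the sources used here, nor is it said whether each library stands for its own animal. The spread between libraries, against which the tests below set each difference, may therefore be technical. The series also holds 7 chromatin and input samples that were not analysed here, and its title concerns butyrylation of histones by way of the microbiota.

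Glycolysis splits glucose into pyruvate in the cytosol. Glucose enters through facilitative transporters such as the product of Slc2a1 (GLUT1), hexokinases trap it by phosphorylation, and phosphofructokinase commits it to the pathway. Phosphoglycerate kinase and pyruvate kinase each make ATP, and lactate dehydrogenase A turns pyruvate into lactate and regenerates NAD+. Several steps are served by more than a single gene: Hk1 is the widely expressed hexokinase and Hk2 the inducible form of muscle, fat and tumours, while Pfkl, Pfkm and Pfkp encode the liver, muscle and platelet types of phosphofructokinase, whose subunits form tetramers of the same or of mixed types. Epithelial cells of the large intestine are known for using butyrate from bacterial fermentation as a main fuel. Many glycolytic genes are known targets of hypoxia-inducible factors and of MYC.

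The promoters of 4 genes are shown because these genes carry the results: Hk2 and Pfkp had the highest fold changes with ampicillin, Pfkl moved opposite to Pfkp, and Ldha was the most abundant. Each run holds the 250 bases before an annotated transcript start, read 5′ to 3′ on the gene's strand, from RefSeq on GRCm38.p6, the same build as mm10. The windows are chr6:82774455-82774704 on the minus strand for Hk2, chr13:6648772-6649021 on the minus strand for Pfkp, chr10:78009808-78010057 on the minus strand for Pfkl and chr7:46845554-46845803 on the plus strand for Ldha, the first of its 2 annotated starts in the table. Capitals mark ACGTG and GCGTG, the forms of the core that hypoxia-inducible factors bind, on either strand, so that CACGT and CACGC are their reverse complements.
Hk2: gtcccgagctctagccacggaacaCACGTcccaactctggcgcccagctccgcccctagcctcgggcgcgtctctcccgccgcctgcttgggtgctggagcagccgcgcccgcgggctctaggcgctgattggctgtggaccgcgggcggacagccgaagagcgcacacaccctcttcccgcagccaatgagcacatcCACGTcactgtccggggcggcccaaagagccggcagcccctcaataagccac
Pfkp: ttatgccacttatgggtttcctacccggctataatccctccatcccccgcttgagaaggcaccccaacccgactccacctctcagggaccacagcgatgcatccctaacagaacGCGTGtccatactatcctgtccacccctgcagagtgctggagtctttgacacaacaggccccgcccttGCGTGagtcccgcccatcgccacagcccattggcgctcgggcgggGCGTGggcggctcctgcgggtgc
Pfkl: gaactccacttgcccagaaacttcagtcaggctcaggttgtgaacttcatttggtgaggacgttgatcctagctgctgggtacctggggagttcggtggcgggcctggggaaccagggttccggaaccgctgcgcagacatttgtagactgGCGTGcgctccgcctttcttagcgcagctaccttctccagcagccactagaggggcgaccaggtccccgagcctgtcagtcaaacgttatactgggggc
Ldha: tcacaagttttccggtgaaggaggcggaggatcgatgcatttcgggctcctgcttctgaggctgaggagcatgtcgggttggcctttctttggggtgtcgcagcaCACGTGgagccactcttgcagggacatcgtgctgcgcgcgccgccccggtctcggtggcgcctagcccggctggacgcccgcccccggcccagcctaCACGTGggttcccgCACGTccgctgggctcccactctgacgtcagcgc
The Ldha window held 5 matches of ACGTG counted over both strands, 4 of which lay in pairs on 2 copies of CACGTG, the E-box bound by MYC and by carbohydrate response factors. The Pfkp window held 3 matches of GCGTG and none of ACGTG. The Hk2 window held 2 matches of ACGTG on the other strand, and the Pfkl window held 1 match of GCGTG. Over the 16 RefSeq windows of the 10 genes, 12 held ACGTG or GCGTG, in 9 of the 10 genes, with Gpi1 the gene without a match. The Pfkm windows chr15:98108221-98108470 and chr15:98108306-98108555 overlap and share a match of GCGTG, which is counted in each. Of all 32851 windows of this length, 38.6% held a match, which is a share of windows and not of genes. The windows of the 10 genes were richer in G and C, at a median of 61.0% against 52.4% over all windows. The part of base composition in the share with a match was not tested. A match describes the letters of the window and shows no binding.

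Expression was given as TPM, a measure scaled by transcript length and to a common total per library, so that levels of different genes can be set side by side. TPM keeps no sequencing depth, and the depth of each library is unknown. The 9 columns of values summed to 999833 to 999866. Log2 values correlated at 0.976 to 0.981 within groups and at 0.964 to 0.975 between groups. The libraries were rich in markers of epithelium, at a summed 9874 to 14163 TPM over 7 genes, and of absorptive cells of the caecum and colon, at 34461 to 39369 TPM over 6 genes. Markers of B and plasma cells, fibroblasts, smooth muscle and endothelium summed to at most 5.88 TPM per list, and those of myeloid cells to at most 24.3 TPM with S100a8 at 0 in every library. Those of T and intraepithelial lymphocytes reached 50.0 TPM and those of erythroid cells 134 TPM, both highest in libraries of ampicillin with tributyrin. Vehicle replicate 2 stood apart in 8 small intestinal and Paneth cell genes. They summed to 2336 TPM there, against 1673 and 1596 TPM in vehicle replicates 1 and 3. Results for Pfkm and Pfkp that rest on this library are given without it too. The calls of the small intestinal and Paneth cell genes are not given without it. In bulk libraries, fewer cells of a type and less RNA per cell cannot be told apart.

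Together the 10 genes made up 3882 to 3972 TPM in libraries of ampicillin with tributyrin, 4452 to 4744 TPM in those of ampicillin with mock and 3314 to 3381 TPM in those of vehicle with mock, and these 3 ranges did not overlap. Ldha and Pkm were the most abundant in every group and Pfkm the least. With vehicle the order was Ldha, Pkm, Gpi1, Pgk1, Pfkl, Slc2a1, Hk1, Pfkp, Hk2 and Pfkm, and among neighbours in it the libraries overlapped for Pfkp and Hk2. With ampicillin and mock, Pgk1 stood above Gpi1 and Pfkp reached the level of Hk1, at 86.2 ± 4.62 and 85.3 ± 1.33 TPM (SD, n = 3 each), which overlapped. With ampicillin and tributyrin the order of the first 5 was the same as with ampicillin and mock, and the libraries overlapped for Hk1 and Slc2a1, which came next.

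**Figure D1:**
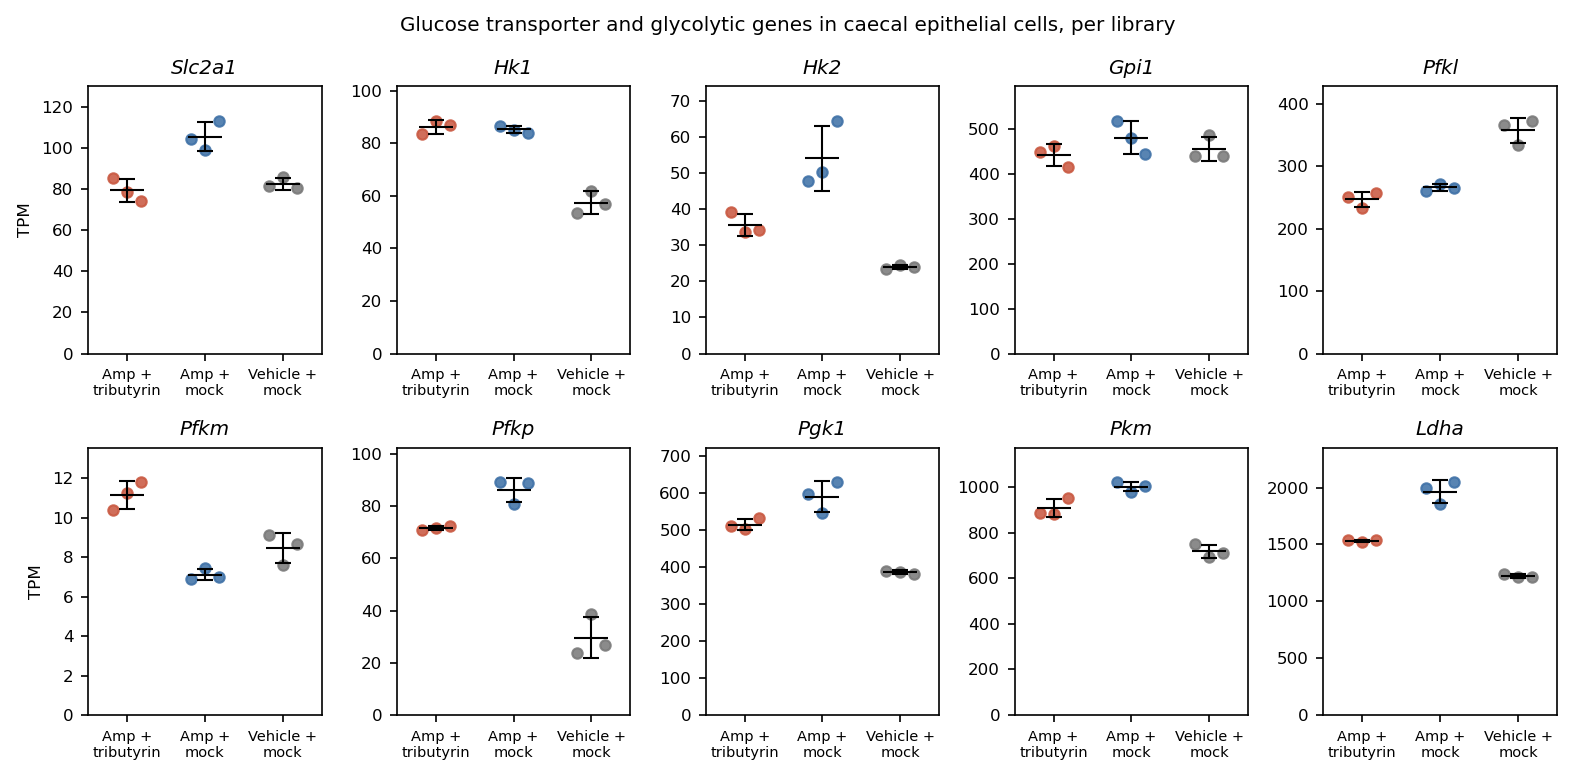
TPM (y axis, linear, from 0) of each of the 10 genes in the 3 libraries of each group, with the group mean as a bar and the SD as whiskers. Pfkp and Hk2 stand highest with ampicillin and mock and lowest with vehicle, while Pfkl runs the other way between those groups and Pfkm is highest with tributyrin.

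The first comparison asked how 7 days of ampicillin changed the genes. With ampicillin and mock gavage, 7 of the 10 genes rose, 1 fell and 2 did not pass the test. The genes of glucose uptake, of both hexokinases, of Pfkp and of the steps from Pgk1 to Ldha rose, the liver-type phosphofructokinase gene Pfkl fell, and Pfkm and Gpi1 were not called. Of the 12155 genes tested, 11.0% were called higher and 10.2% lower, and 21.3% were called in either direction. For 9 of the 10 genes, 7 higher and 2 lower, every ampicillin library lay on 1 side of every vehicle library, as was so for 22.6% of all genes on the higher side and 18.2% on the lower. The median log2 fold change of the 10 genes was 0.52, beside 0.024 over all genes tested. As the 10 genes and the lists were chosen with earlier results of these data known, such counts and medians are descriptive, here and below. Fold changes are those of TPM + 1 on the log2 scale, which understates low genes, given ± SE, and each adjusted p is from limma with Benjamini-Hochberg adjustment over all 12155 genes.

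Slc2a1, on chromosome 4 (119108745 to 119137330), encodes a glucose carrier found in most cell types. It stood at 104, 99.1 and 113 TPM in the ampicillin libraries with mock, against 81.3, 85.7 and 80.4 TPM in the vehicle libraries. All ampicillin libraries lay above all vehicle libraries, and the log2 fold change was 0.35 ± 0.067 (adjusted p = 0.00687).

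Hk2, on chromosome 6 (82725025 to 82774454), was at 47.6, 50.3 and 64.4 TPM with ampicillin and at 23.3, 24.4 and 23.8 TPM with vehicle. Every ampicillin library was well above the vehicle libraries, which lay close together, and ampicillin replicate 3 was the highest. The log2 fold change of Hk2 was 1.14 ± 0.11 (adjusted p = 0.000228). Hk1, on chromosome 10 (62268855 to 62379920), whose enzyme binds to mitochondria in many tissues, was at 86.7, 85.2 and 84.1 TPM with ampicillin and at 53.4, 62.0 and 57.0 TPM with vehicle. The groups did not overlap for Hk1 either, and its log2 fold change was 0.56 ± 0.058 (adjusted p = 0.000326).

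Gpi1, on chromosome 7 (34201327 to 34230336), which interconverts the phosphates of glucose and fructose, was at 519, 481 and 445 TPM with ampicillin and at 441, 487 and 442 TPM with vehicle. These libraries overlapped, and the log2 difference of 0.076 ± 0.072 had a 95% interval of -0.087 to 0.24 (adjusted p = 0.507).

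The 3 phosphofructokinase genes moved apart. Pfkp, on chromosome 13 (6579874 to 6649060), was at 89.1, 80.9 and 88.7 TPM with ampicillin and at 23.6, 38.5 and 26.8 TPM with vehicle. The groups were far apart, and the highest vehicle library was replicate 2. Its log2 fold change of 1.54 ± 0.15 (adjusted p = 0.000231) was the highest of the 10, and it was 1.73 ± 0.068 without vehicle replicate 2. Pfkl, on chromosome 10 (77986947 to 78009807), was at 261, 272 and 265 TPM with ampicillin and at 366, 334 and 373 TPM with vehicle. Here all ampicillin libraries lay below all vehicle libraries, and the log2 fold change was -0.42 ± 0.057 (adjusted p = 0.00126). Pfkm, on chromosome 15 (98092589 to 98132447), was at 6.91, 7.44 and 7.01 TPM with ampicillin and at 9.12, 7.62 and 8.69 TPM with vehicle. The libraries did not overlap, but the log2 difference of -0.22 ± 0.074 did not pass the test (adjusted p = 0.0705). It passed without vehicle replicate 2, at -0.29 ± 0.070 (adjusted p = 0.0277 in limma), with array weights (adjusted p = 0.0290) and when rescaled without short RNA and mitochondrial genes (adjusted p = 0.0479).

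The later steps of the pathway rose together. Ldha, on chromosome 7 (46842274 to 46855627), was at 1996, 1851 and 2045 TPM with ampicillin and at 1243, 1216 and 1212 TPM with vehicle, a log2 fold change of 0.68 ± 0.048 (adjusted p = 4.92e-05). Pgk1, on chromosome X (106187100 to 106203699), was at 597, 546 and 628 TPM with ampicillin and at 390.3, 387 and 381 TPM with vehicle. For both genes the vehicle libraries lay close together and far below every ampicillin library. Pkm, on chromosome 9 (59656576 to 59679372), was at 1020, 979 and 1004 TPM with ampicillin and at 750.5, 693 and 709.8 TPM with vehicle, again without overlap. The log2 fold changes were 0.61 ± 0.056 for Pgk1 (adjusted p = 0.000197) and 0.48 ± 0.050 for Pkm (adjusted p = 0.000370). The values are per gene, so the spliced forms of pyruvate kinase from Pkm cannot be told apart.

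Epithelial markers moved in this comparison too. They summed to 9874 to 10211 TPM with ampicillin and mock and to 12421 to 14163 TPM with vehicle, with 6 of the 7 called lower. Of the markers of absorptive cells 2 of 6 tested were called lower (Car4 and Ceacam1), of the small intestinal and Paneth cell genes 3 of 5, of endothelium 1 of 1 (Pecam1) and of myeloid cells 1 of 3. The 3 small intestinal and Paneth cell genes were Fabp6, Apoa1 and Defa22. With vehicle they stood at 137 ± 181, 28.9 ± 40.3 and 7.83 ± 7.93 TPM (SD), each with an SD above its mean. Their calls are not given without vehicle replicate 2, so a fall with ampicillin apart from that library is not shown. The part of all these markers in the results was not tested. Markers of T and intraepithelial lymphocytes overlapped between these groups, at a summed 15.1 to 24.7 TPM with ampicillin and 18.5 to 22.1 TPM with vehicle, and 0 of 7 tested was called by limma, nor at an unadjusted p under 0.05.

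**Figure D2:**
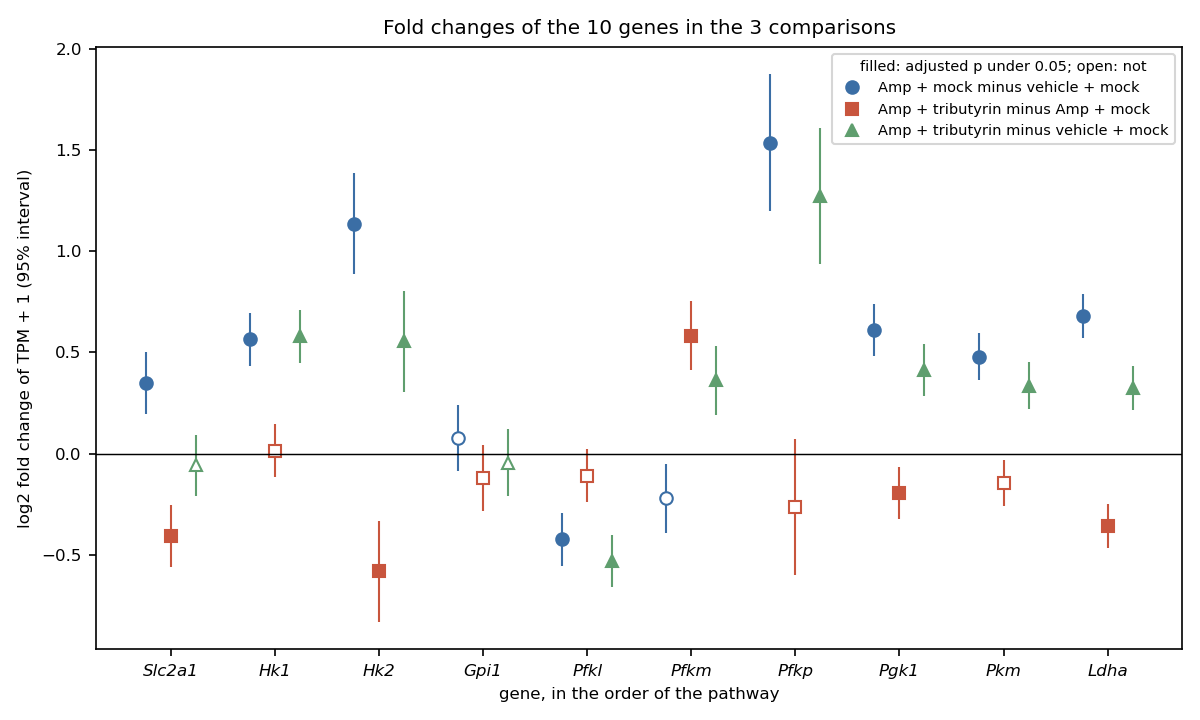
Log2 fold change of TPM + 1 (y axis) with its 95% interval for the 10 genes in pathway order (x axis), in ampicillin with mock over vehicle with mock (circles), ampicillin with tributyrin over ampicillin with mock (squares) and ampicillin with tributyrin over vehicle with mock (triangles). Filled symbols passed an adjusted p of 0.05 in limma. Pfkp and Hk2 have the highest values for ampicillin, at 1.54 and 1.14, and Pfkm is the gene above 0 that passed for tributyrin over mock.

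The next comparison, of tributyrin with mock gavage in mice on ampicillin, covers the 6 h after gavage. Of the 10 genes, 4 fell, 1 rose and 5 did not pass the test. Hk2, Slc2a1, Ldha and Pgk1 fell, and Pfkm, the phosphofructokinase gene that is otherwise known from muscle, rose. Among all genes tested, 7.54% were called lower, 15.6% higher and 23.2% in either direction. The libraries did not overlap for 8 of the 10 genes, 1 higher and 7 lower, beside 27.3% of all genes on the higher side and 15.3% on the lower. The split over all genes depended on scaling: 1902 were higher and 917 lower as deposited, but 1466 to 1652 were higher and 1317 to 1647 lower with upper quartile scaling, quantile normalization or median centring. In place of 2819 genes, 1756 were called without ampicillin replicate 1, 1681 without ampicillin replicate 2 and 1587 without tributyrin replicate 2. The median log2 fold change of the 10 genes was -0.17, beside 0.049 over all genes tested. This comparison shares the ampicillin libraries with mock with the first comparison, so each is given by its own values.

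Hk2 was at 39.2, 33.5 and 34.1 TPM with tributyrin and at 47.6, 50.3 and 64.4 TPM with mock. All tributyrin libraries lay below all mock libraries, a log2 fold change of -0.58 ± 0.11 (adjusted p = 0.00731). Slc2a1 was at 85.1, 78.5 and 74.4 TPM with tributyrin and at 104, 99.1 and 113 TPM with mock, also without overlap, and its log2 fold change was -0.41 ± 0.067 (adjusted p = 0.00423). Hk1 was at 83.4, 88.6 and 86.9 TPM with tributyrin and at 86.7, 85.2 and 84.1 TPM with mock. The 2 groups overlapped for Hk1, and the log2 difference of 0.016 ± 0.058 had a 95% interval of -0.12 to 0.15 (adjusted p = 0.878).

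Pfkm was at 10.4, 11.3 and 11.8 TPM with tributyrin and at 6.91, 7.44 and 7.01 TPM with mock. Each tributyrin library was above each mock library, and the log2 fold change was 0.58 ± 0.074 (adjusted p = 0.00152). Pfkp was at 70.7, 71.7 and 72.4 TPM with tributyrin and at 89.1, 80.9 and 88.7 TPM with mock. The libraries did not overlap, yet the log2 difference of -0.26 ± 0.15 was not called (adjusted p = 0.231). The fit estimates 1 spread per gene over all 9 libraries. It was called at the same size, with an SE of 0.061, when vehicle replicate 2 was left out of the fit (adjusted p = 0.0210 in limma), and with an SE of 0.049 when the 6 ampicillin libraries alone were fitted (adjusted p = 0.0171). Pfkl was at 251, 234 and 257 TPM with tributyrin and at 261, 272 and 265 TPM with mock, which is lower in every library, but the log2 difference of -0.11 ± 0.057 did not pass the test and had a 95% interval of -0.24 to 0.021 (adjusted p = 0.200).

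Ldha was at 1538, 1520 and 1535 TPM with tributyrin and at 1996, 1851 and 2045 TPM with mock. The tributyrin libraries lay close together below all mock libraries, a log2 fold change of -0.36 ± 0.048 (adjusted p = 0.00176). Pgk1 was at 510.1, 502 and 532 TPM with tributyrin and at 597, 546 and 628 TPM with mock. Its log2 fold change of -0.20 ± 0.056 passed the test narrowly (adjusted p = 0.0385), and the call was lost when any library except ampicillin replicate 2 or tributyrin replicate 3 was left out, with adjusted p-values up to 0.120 in limma. Pkm was at 887, 880.2 and 953 TPM with tributyrin and at 1020, 979 and 1004 TPM with mock, a log2 difference of -0.14 ± 0.050 that was not called (adjusted p = 0.0716) but passed without tributyrin replicate 3, at -0.18 ± 0.048 (adjusted p = 0.0350), with quantile normalization (adjusted p = 0.0230) and with array weights (adjusted p = 0.0194). Gpi1 overlapped between the groups, at 449, 463 and 416 TPM with tributyrin and 519, 481 and 445 TPM with mock, and its log2 difference of -0.12 ± 0.072 had a 95% interval of -0.28 to 0.044 (adjusted p = 0.257).

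Markers of several cell types moved in this comparison. Erythroid markers summed to 94.5 to 134 TPM with tributyrin and to 13.4 to 36.6 TPM with mock, with 2 of 2 tested called higher. Those of T and intraepithelial lymphocytes summed to 27.5 to 50.0 TPM with tributyrin and to 15.1 to 24.7 TPM with mock, with 3 of 7 tested called higher. Epithelial markers summed to 11181 to 12044 TPM with tributyrin and to 9874 to 10211 TPM with mock, with 2 of 7 called higher (Krt18 and Cdh1). Of the absorptive cell markers 1 of 6 was called higher (Car4) and 1 lower (Guca2a), and Pecam1 of endothelium was called higher. Their part in the results for the 10 genes was not tested.

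The third comparison set ampicillin with tributyrin against vehicle with mock. Of the 10 genes, 7 were higher, 1 was lower and 2 did not pass the test, beside 19.1%, 9.21% and 28.3% of all genes called higher, lower and in either direction. The libraries did not overlap for the same 8, beside 28.5% of all genes on the higher side and 13.2% on the lower. Over all genes 2325 were higher and 1119 lower as deposited, but 1683 were higher and 1663 lower with quantile normalization and 1600 were higher and 1652 lower with median centring, and 2093 genes were called in all without tributyrin replicate 2. Slc2a1 averaged 79.3 ± 5.44 TPM with ampicillin and tributyrin and 82.5 ± 2.79 TPM with vehicle (SD, n = 3 each), and these libraries overlapped. The log2 difference of Slc2a1 was -0.057, with a 95% interval of -0.21 to 0.095 (adjusted p = 0.552). Hk1, Hk2 and Pfkp were higher than with vehicle, by 0.58 ± 0.058 (adjusted p = 0.000378), 0.56 ± 0.11 (adjusted p = 0.00729) and 1.27 ± 0.15 (adjusted p = 0.000765) on the log2 scale. The value of Pfkp was 1.47 without vehicle replicate 2. Pfkl was lower, at 247 ± 12.2 TPM with ampicillin and tributyrin against 358 ± 20.6 TPM with vehicle, by a log2 fold change of -0.53 ± 0.057 (adjusted p = 0.000520). Pfkm was higher, by 0.36 ± 0.074 (adjusted p = 0.00904), a call that was lost with quantile normalization, at 0.27 (adjusted p = 0.0565). Pgk1, Pkm and Ldha were higher by 0.41 ± 0.056, 0.34 ± 0.050 and 0.32 ± 0.048 (adjusted p between 0.00154 and 0.00236). Gpi1 overlapped, with a 95% interval of -0.21 to 0.12 for its log2 difference. Epithelial markers summed to 11181 to 12044 TPM with ampicillin and tributyrin and to 12421 to 14163 TPM with vehicle, and erythroid markers to 94.5 to 134 TPM with ampicillin and tributyrin and to 8.36 to 25.4 TPM with vehicle. Of the 7 epithelial markers 2 were called higher and 3 lower, and of the erythroid markers 2 of 2 tested were called higher. Markers of T and intraepithelial lymphocytes summed to 27.5 to 50.0 TPM with ampicillin and tributyrin and to 18.5 to 22.1 TPM with vehicle, with 4 of 7 tested called higher. Of the absorptive cell markers 1 of 6 was called higher and 2 lower, and of the small intestinal and Paneth cell genes 3 of 5, of endothelium 1 of 1 and of myeloid cells 1 of 3 were called lower. The 3 small intestinal and Paneth cell genes were again Fabp6, Apoa1 and Defa22, whose calls are not given without vehicle replicate 2. The part of all these markers in this comparison was not tested.

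The hexokinase genes shifted in proportion as well as in level. Of the summed TPM of Hk1 and Hk2, Hk2 held 32.0%, 27.5% and 28.2% in the tributyrin libraries, 35.5%, 37.1% and 43.4% in the ampicillin libraries with mock and 30.4%, 28.2% and 29.5% in the vehicle libraries. The share of Hk2 was thus higher in every ampicillin library with mock than in any other library. It was 9.26 percentage points higher with ampicillin than with vehicle, and differed by -9.43 percentage points between tributyrin and mock. Each of these differences had p = 0.1 in a two-sided exact permutation test, the smallest p that 3 libraries against 3 allow. Between ampicillin with tributyrin and vehicle the shares overlapped (29.2% ± 2.43 and 29.4% ± 1.09, SD, n = 3 each; exact permutation p = 0.9). The sum of both genes was 122 ± 0.850 TPM with ampicillin and tributyrin, 139 ± 7.84 TPM with ampicillin and mock and 81.3 ± 4.88 TPM with vehicle.

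A further hexokinase gene, Hkdc1, stood between Hk2 and Hk1 in mean level, at 59.6 ± 3.38 TPM with ampicillin and tributyrin, 80.1 ± 7.50 TPM with ampicillin and mock and 53.8 ± 4.34 TPM with vehicle. Hk3, a form of white blood cells, averaged at most 0.017 TPM in a group. Hkdc1 rose with ampicillin, at 0.56 ± 0.084 (adjusted p = 0.00214), and fell with tributyrin against mock, at -0.42 ± 0.084 (adjusted p = 0.00994). Of the hexokinase genes in the table together, 5 in number, Hk2 held 19.6% ± 1.30 with ampicillin and tributyrin, 24.5% ± 2.42 with ampicillin and mock and 17.7% ± 0.712 with vehicle. Counted over 5 genes, the tributyrin libraries lay above the vehicle libraries in the share of Hk2, by 1.93 percentage points, where the share over Hk1 and Hk2 overlapped. Hk1 held 47.5% ± 2.42 with ampicillin and tributyrin, 39.0% ± 3.15 with ampicillin and mock and 42.5% ± 1.64 with vehicle.

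**Figure D3:**
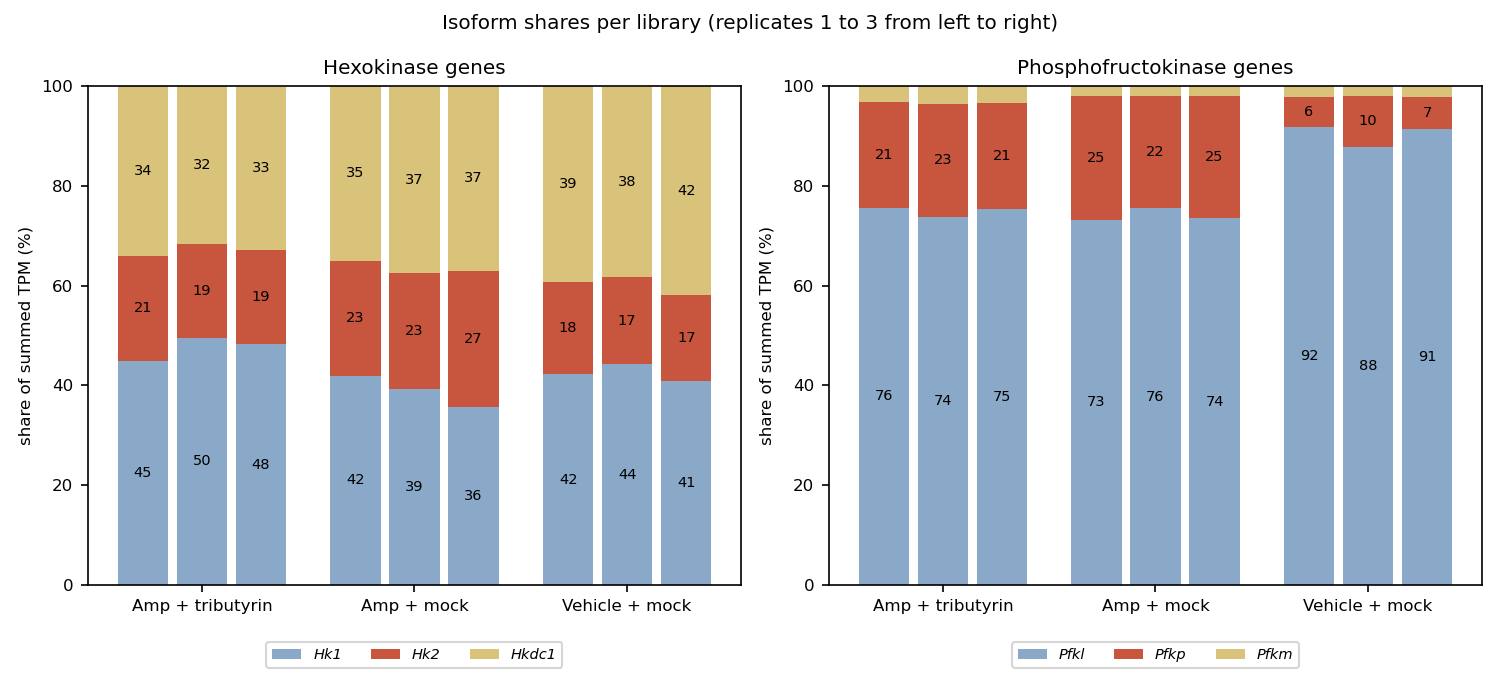
Share of summed TPM (y axis, %) per library, replicates 1 to 3 from left to right in each group, for the hexokinase genes (left, of 5 genes, those not drawn being too low to be seen) and the phosphofructokinase genes (right). The Pfkp share is 21.2 to 24.9% in the ampicillin libraries of both groups and 5.94 to 10.1% in the vehicle libraries.

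The phosphofructokinase genes differed in proportion between ampicillin and vehicle. Pfkp held 21.3%, 22.7% and 21.2% of the summed TPM of Pfkl, Pfkm and Pfkp in the tributyrin libraries, 24.9%, 22.4% and 24.6% in the ampicillin libraries with mock and 5.94%, 10.1% and 6.57% in the vehicle libraries. Both ampicillin groups lay far above vehicle, and they overlapped with each other. The share of Pfkp was 16.4 percentage points higher with ampicillin and mock than with vehicle (exact permutation p = 0.1, the smallest possible), and 17.7 points higher without vehicle replicate 2. With ampicillin and tributyrin it was 14.2 points above vehicle (exact permutation p = 0.1), and 15.5 points above it without vehicle replicate 2. The share with ampicillin and tributyrin differed by -2.25 points from that with ampicillin and mock (exact permutation p = 0.2). Pfkl remained the main gene of the 3 in every library, at 74.9% ± 0.978 with ampicillin and tributyrin, 74.0% ± 1.27 with ampicillin and mock and 90.3% ± 2.13 with vehicle. Pfkm held 3.13%, 3.56% and 3.46% with tributyrin, 1.93%, 2.06% and 1.94% with ampicillin and mock and 2.29%, 2.004% and 2.13% with vehicle, so that its share was higher in each tributyrin library than in any other. The sum of the 3 genes was 330.0 ± 12.4 TPM with ampicillin and tributyrin, 360 ± 2.03 TPM with ampicillin and mock and 396 ± 14.3 TPM with vehicle. Levels of RNA do not give the amounts of enzyme.

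Other steps of glycolysis were read from a list of 21 further enzyme genes, of which 14 were tested. With ampicillin against vehicle, 8 of the 14 rose and 1 fell, with a median log2 fold change of 0.31. The enolase gene Eno1 rose most, at 909 ± 41.4 TPM with ampicillin and 566 ± 37.3 TPM with vehicle (0.68 ± 0.058, adjusted p = 0.000133), followed by Eno1b, a near-identical copy of Eno1 whose reads cannot be told apart with certainty, at 0.60 ± 0.13. The phosphoglycerate mutase gene Pgam1 rose by 0.42 ± 0.066 (adjusted p = 0.00250). The muscle enolase gene Eno3 was the 1 that fell, at 30.0 ± 1.95 TPM with ampicillin and 42.2 ± 4.64 TPM with vehicle, a call that was lost without vehicle replicate 3 or without ampicillin replicate 1 or 2 (adjusted p between 0.0596 and 0.0691 in limma). With tributyrin against mock, 2 of the 14 rose and 2 fell, and the median was -0.0028. Eno3 rose, at 49.3 ± 7.32 TPM with tributyrin and 30.0 ± 1.95 TPM with mock (0.69 ± 0.12, adjusted p = 0.00445). The aldolase gene Aldoa fell by 0.13 on the log2 scale, a call lost without vehicle replicate 3, any ampicillin replicate with mock or tributyrin replicate 1 or 2 (adjusted p up to 0.103), and the other that fell was Hkdc1. Against vehicle, 7 of the 14 were higher with ampicillin and tributyrin and 0 were lower in limma, nor at an unadjusted p under 0.05. Among the 7, Gapdh lost its call when any vehicle replicate was left out (adjusted p between 0.0506 and 0.136 in limma). Ldha held at least 99.95% of the TPM of Ldha and Ldhb in every library, and Pkm at least 92.4% of that of Pkm and Pklr. Genes such as Gapdh, Ldha, Pgk1 and Pkm have processed pseudogenes, with which reads may be shared.

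Regulators of the phosphofructokinase and pyruvate steps moved in part. Of 17 tested, 6 rose and 1 fell with ampicillin against vehicle, with a median log2 fold change of 0.093, and 3 of the 6 kept their call without ampicillin replicate 2. Pfkfb4, a kinase that makes the activator of phosphofructokinase, rose, at 9.36 ± 0.0747 TPM with ampicillin and 3.75 ± 0.454 TPM with vehicle (1.13 ± 0.077, adjusted p = 4.25e-05). Pdk1, a kinase that turns off pyruvate dehydrogenase, rose by 0.40 ± 0.058, and its relative Pdk3 fell by 0.51 on the log2 scale. With tributyrin against mock, 4 of the 17 rose and 3 fell, with a median of 0.0038. Of these, 2 that rose and 2 that fell kept their call without ampicillin replicate 1 and without tributyrin replicate 2. Pdk1, at -0.45 ± 0.058, and Pdk2, at -0.31 ± 0.054, fell, while Pdk3 and Pdk4 rose by 0.54 ± 0.057 and 0.92 ± 0.20. The call for Pdk4 was lost without ampicillin replicate 1 (adjusted p = 0.0516) or tributyrin replicate 2 (adjusted p = 0.0553). The transcription factor gene Myc rose, at 52.5 ± 9.40 TPM with tributyrin and 32.3 ± 1.07 TPM with mock (0.67 ± 0.11, adjusted p = 0.00443). Hif1a, which encodes an oxygen-regulated subunit controlled mainly as protein, was at 26.6 ± 1.07 TPM with tributyrin, 26.6 ± 2.48 TPM with ampicillin and mock and 22.0 ± 3.43 TPM with vehicle, and was called in no comparison (adjusted p between 0.0885 and 1).

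Among 17 further hexose transporter genes, 8 were tested. The sodium-coupled glucose transporter gene Slc5a1 was at 55.0 ± 3.28 TPM with ampicillin and tributyrin, 62.7 ± 3.23 TPM with ampicillin and mock and 50.1 ± 2.16 TPM with vehicle, and rose with ampicillin by 0.32 ± 0.061 (adjusted p = 0.00723). The other of the 2 that rose with ampicillin was the myo-inositol carrier gene Slc2a13, and 0 fell in limma, though 2 were lower at an unadjusted p under 0.05, with a list median of -0.076. With tributyrin against mock 1 rose, the intracellular hexose carrier gene Slc2a8 (0.50 ± 0.11, adjusted p = 0.0140), and 1 fell, Slc2a13 (-0.37 ± 0.093, adjusted p = 0.0225). The call for Slc2a8 was lost without tributyrin replicate 2 (adjusted p = 0.0554), and that for Slc2a13 without ampicillin replicate 2 or 3 or tributyrin replicate 2 or 3 (adjusted p between 0.0516 and 0.0733). Slc2a3, which encodes the high-affinity carrier GLUT3, averaged at most 0.373 TPM in a group, so Slc2a1 was the most abundant of the transporter genes listed.

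Genes of gluconeogenesis, the reverse route, and of the side branches of glycolysis were read from further lists. Of 7 tested genes of gluconeogenesis, 4 fell and 1 rose with ampicillin against vehicle, with a median of -0.30. Among the 4, G6pc3 lost its call without any vehicle library, any ampicillin library with mock or tributyrin replicate 1 (adjusted p between 0.0526 and 0.109 in limma). Pck1, whose enzyme makes phosphoenolpyruvate, fell, at 47.3 ± 6.22 TPM with ampicillin and 79.7 ± 3.003 TPM with vehicle (-0.75 ± 0.14, adjusted p = 0.00573). Fbp1 fell by 0.75 on the log2 scale from a low level, at 3.15 ± 0.535 TPM with ampicillin and 5.95 ± 0.102 TPM with vehicle. The far more abundant Fbp2 was the gene of this list that rose, at 337 ± 6.75 TPM with ampicillin and 272 ± 18.7 TPM with vehicle. With tributyrin against mock 1 rose, Pck1 (0.48 ± 0.14, adjusted p = 0.0378), and 3 fell, among them Fbp2 (-0.31 ± 0.065, adjusted p = 0.0110). The call for Pck1 was lost when any library except tributyrin replicate 3 was left out (adjusted p between 0.0520 and 0.115 in limma). Of the 8 genes of the pentose phosphate branch, 0 rose and 1 fell with ampicillin in limma, with a median of -0.085. With tributyrin against mock 4 rose and 0 fell, with a median of 0.14, led by H6pd (0.63 ± 0.097, adjusted p = 0.00313 in limma). At an unadjusted p under 0.05, 0 were higher with ampicillin and 1 was lower with tributyrin. Of the 4 that rose with tributyrin, only H6pd kept its call without ampicillin replicate 2, without ampicillin replicate 3 and without tributyrin replicate 2, and 2 did without tributyrin replicate 1.

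Of 16 tested genes of glycogen and hexose entry, 5 rose and 2 fell with ampicillin, with a median of 0.12, and 1 of the 2 that fell kept its call without ampicillin replicate 2 or 3 or vehicle replicate 2. Among the 5 that rose, Pgm2 lost its call without vehicle replicate 1 or 2 or any ampicillin replicate with mock (adjusted p between 0.0606 and 0.0825 in limma). Gbe1, the glycogen branching enzyme gene, was at 14.6 ± 1.10 TPM with ampicillin and 7.57 ± 0.257 TPM with vehicle (0.86 ± 0.067, adjusted p = 8.64e-05). With tributyrin against mock 3 rose and 5 fell, with a median of -0.014, and Gbe1 fell by 0.76 on the log2 scale (adjusted p = 0.000437). Of the 3 and 5, 2 that rose and 2 that fell kept their call without ampicillin replicate 2, and 3 in each direction without tributyrin replicate 2. Galk1, the galactokinase gene, ran the other way, with -0.91 ± 0.084 for ampicillin against vehicle and 1.00 ± 0.084 for tributyrin against mock. Of 16 tested genes by which pyruvate and lactate leave the pathway, 5 rose and 4 fell with ampicillin, and 5 rose and 2 fell with tributyrin against mock. The medians were 0.032 and -8.3e-05 on the log2 scale. Of the 5 that rose with ampicillin, 3 kept their call without ampicillin replicate 3, vehicle replicate 1 or vehicle replicate 2. Of those called with tributyrin, 3 higher and 1 lower kept their call without ampicillin replicate 1 and 3 higher and 0 lower in limma without tributyrin replicate 2, and no more than 1 of the 2 that fell kept it whichever library was left out. The gene of the lactate exporter MCT4, Slc16a3, was at 3.70 ± 0.400 TPM with ampicillin and tributyrin, 6.17 ± 0.828 TPM with ampicillin and mock and 1.24 ± 0.582 TPM with vehicle. It rose with ampicillin by 1.70 ± 0.17 (adjusted p = 0.000334), and its fall with tributyrin against mock, at -0.60 ± 0.17 (adjusted p = 0.0386), lost its call without vehicle replicate 1 or any of the 6 ampicillin libraries (adjusted p between 0.0516 and 0.111 in limma). The gene of MCT1, Slc16a1, a carrier of lactate, pyruvate and butyrate, ran the other way, at 281 ± 26.0 TPM with ampicillin and tributyrin, 184 ± 7.50 TPM with ampicillin and mock and 298 ± 8.73 TPM with vehicle. Slc16a1 fell with ampicillin (-0.69 ± 0.068, adjusted p = 0.000281) and rose with tributyrin against mock (0.60 ± 0.068, adjusted p = 0.00100). The mitochondrial pyruvate carrier gene Mpc1 rose with ampicillin, at 290 ± 8.32 TPM with ampicillin and 206 ± 8.48 TPM with vehicle. The cytosolic transaminase genes Got1 and Gpt moved apart with ampicillin, at 0.97 ± 0.076 and -1.49 ± 0.065, both called. The glycerol phosphate dehydrogenase gene Gpd1 was at 31.3 ± 3.81 TPM with ampicillin and tributyrin, 13.2 ± 1.72 TPM with ampicillin and mock and 25.6 ± 3.02 TPM with vehicle. With ampicillin and tributyrin against vehicle, 7 of the 17 regulators were higher and 0 lower in limma, and 0 of the 8 transporters was called, while at an unadjusted p under 0.05 1 regulator was lower and 2 transporters differed. In that comparison 4 of the 7 genes of gluconeogenesis were lower, 5 of the 16 of glycogen and hexose entry were higher and 2 lower, and 5 of the 16 of pyruvate and lactate exit were higher and 3 lower. For glycogen and hexose entry 3 of the 5 kept their call without tributyrin replicate 2, vehicle replicate 1 or vehicle replicate 3, and 1 of the 2 that were lower kept it whichever library was left out. For pyruvate and lactate exit 3 of the 5 kept it without vehicle replicate 2.

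**Figure D4:**
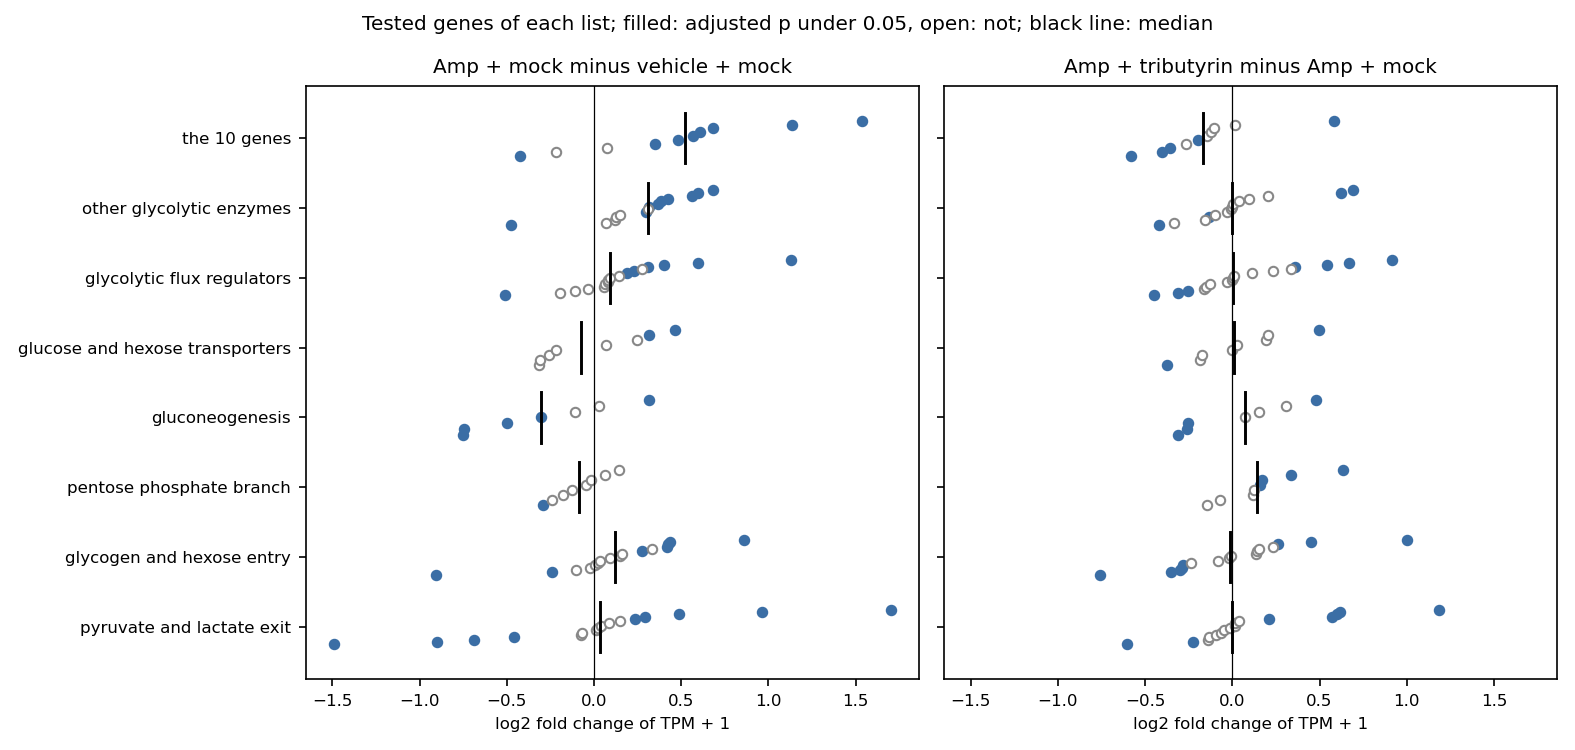
Log2 fold change of TPM + 1 (x axis) of each tested gene of the 10 genes and of 7 further lists (rows), for ampicillin with mock over vehicle with mock (left) and ampicillin with tributyrin over ampicillin with mock (right). Filled points passed an adjusted p of 0.05 in limma and the black line is the list's median, which for the 10 genes is 0.52 on the left and -0.17 on the right.

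Across the 9 libraries the 10 genes did not share a single pattern. Hk2, Pgk1, Pkm and Ldha ran together, with Pearson r over log2 values of 0.908 to 0.979 between them, and Hk1 and Pfkp had r = 0.977. These sets were not separate, as Pfkp had r = 0.945 with Pgk1 and 0.915 with Pkm, and Hk1 had r = 0.899 with Pgk1. Pfkl ran opposite to Hk1, at r = -0.972, and to Pfkp, at r = -0.925, and Pfkm ran opposite to Slc2a1, at r = -0.846. These values describe 9 libraries that fall into 3 groups, so differences between groups enter them. Among tested genes outside the 10, the patterns most like their mean were those of Dhrs11 (r = 0.995), Hmox1 (r = 0.991), Nr1h3 (r = 0.990), Tbc1d9 (r = 0.987) and Atp6ap1 (r = 0.987). The 3 most like Hk2 were Vldlr (r = 0.985), Eif5 (r = 0.982) and Atp5c1 (r = 0.980), and the 3 most like Pfkp were Slc6a8 (r = 0.991), Pfkfb4 (r = 0.987) and Akr1c18 (r = 0.985), each over 9 libraries.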

How the data were processed

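RNA was measured in 9 libraries, 3 per group, whose titles give the group and the replicate number. Per the labels' protocols, epithelium was lifted off with DTT, EDTA and Dispase, its RNA was cleaned with an RNeasy kit, and NEBNext Ultra II reagents gave the libraries. The deposited table holds TPM values per gene, made by the authors. Salmon 0.8.2, DESeq2 1.20.0 and mm10 are named in the submitters' processing notes with no role, and the sources used here name no annotation, filter or strand setting, nor how transcripts were summed per gene. As no counts are given, no count model was used and no counting error can be stated, and the precision is the spread between the 3 libraries.

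Genes with a mean of at least 1 TPM over the 9 libraries were kept, and log2(TPM + 1) was fitted with 1 mean per group in limma 3.58.1 (R 4.3.3), with a trend in the moderated variances, which leaves 6 residual degrees of freedom. Calls are two-sided at a Benjamini-Hochberg adjusted p under 0.05 over 12155 genes. Shares were compared by exact permutation over libraries with scipy 1.17.1. Of 24091 gene IDs, 24045 matched a RefSeq table of GRCm38.p6, among them all 10, and the gene positions printed span each whole gene in it. Promoter windows are RefSeq's. Named genes are the 10, up to 4 called genes per list, comparison and direction, and the genes most like them in pattern. The members and lists were chosen with earlier results of these data known. The labels do not say that equal replicate numbers pair samples, so no pairing was used. With group means removed, same-numbered libraries of different groups correlated at -0.050 to 0.11. Libraries with different numbers correlated at -0.12 to 0.075. Alternatives varied the pseudocount, filter, scaling, variance model and libraries. Figures were drawn with matplotlib 3.10.9. Some genes of the lists are counted but not reported by name here.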

Additional observations from a re-analysis of the deposited data

How the results depend on the processing

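The counts of the 10 genes called stayed within 1.5 times of those given under every alternative run: 8 to 9 for ampicillin against vehicle, 4 to 6 for tributyrin against mock and 7 to 8 for ampicillin with tributyrin against vehicle, with libraries left out giving 8 to 9, 4 to 6 and 8. With the replicate block they were 8, 5 and 8, so that no count of members changed. Some small differences that were not called turned sign. The log2 difference of Hk1 for tributyrin against mock was -0.0028 when rescaled without short RNA and mitochondrial genes, -0.021 with upper quartile scaling, -0.036 with median centring and -0.0034 to 0.040 with a library left out. That of Gpi1 for ampicillin with tributyrin against vehicle was 0.0037 with array weights and -0.077 to 0.0034 with a library left out. The difference in the Hk2 share for ampicillin with tributyrin against vehicle was 1.93 points over 5 hexokinase genes and -1.56 to 0.70 points with a library left out. No other share changed its direction. The replicate block cannot alter a difference in mean share, because every group holds the same replicate numbers, so it is no check of these differences. Pgk1 for tributyrin against mock also lost its call without a filter (adjusted p = 0.0507 in limma), without a trend in the variances (0.0504) and with only the groups compared (0.0737). Over all genes, array weights called 4271 for tributyrin against mock in place of 2819, and leaving out a library gave 1587 to 3011, while for ampicillin with tributyrin against vehicle it gave 2093 to 3786 in place of 3444. The replicate block called 2707, 3009 and 3569 genes in the 3 comparisons, and under it Pck1 for tributyrin against mock lost its call. Fold changes of other genes that could be named were counted once per gene, comparison and setting, so the same fold change enters several times. With a library left out the call was lost in 169 such cases, against 830 that kept direction and call. Under another setting it was lost in 61 cases, against 1257. Depth is unknown, so it sets no stated limit. The cause of these shifts was not tested.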
